A study of Sus scrofa with 16 samples.

Results

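Immediate early genes are the first genes that a cell transcribes after a stimulus, because their transcription needs no new protein. In the hippocampus they are widely used as a record of recent neuronal firing, and FOS, ARC and NPAS4 are read in that way after learning, seizures or novelty. Many of them also answer to growth factors, cytokines and cell stress, and then in glia and vessel cells as well as in neurons. Their transcripts are short-lived, so a tissue sample shows the last minutes to hours before it was frozen.

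The rule named 10 such genes by symbol, FOS, FOSB, JUNB, EGR1, EGR2, ARC, NR4A1, NPAS4, IER2 and BTG2. Of these, 7 had an entry by pig Ensembl identifier among the 22815 entries kept, 1 entry each, and FOSB, ARC and NR4A1 were not matched to any entry, so that no value is given for them. The identifiers were ENSSSCG00000002383 for FOS, ENSSSCG00000013735 for JUNB, ENSSSCG00000014336 for EGR1, ENSSSCG00000010224 for EGR2, ENSSSCG00000012942 for NPAS4, ENSSSCG00000013753 for IER2 and ENSSSCG00000028322 for BTG2. The last was set by identifier, since the gene table used here did not pair it with a symbol. A filter of at least 0.5 FPKM on average over the 16 pigs left 13590 entries for testing and 6 of the 10 genes, all but NPAS4 among those found.

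RNA from the left hippocampus of 16 pigs was sequenced, and the values are FPKM, fragments per kilobase of transcript after scaling to a fixed number of mapped fragments, so that levels are per length. All pigs were born preterm by caesarean section, were fed human donor milk and developed necrotizing enterocolitis (NEC, an inflammatory gut disease of preterm infants) spontaneously or not at all, and all were anaesthetised and bled before the brain was taken, at just over a week of age. Si-NEC pigs (n = 6; 3 females and 3 males) had severe lesions in the small intestine, whether or not the colon was affected too, Co-NEC pigs (n = 5; 2 females and 3 males) had severe lesions in the colon only, and No NEC pigs (n = 5; 2 females and 3 males) had no lesions in any region. Each sample was a different pig; litter and the time from anaesthesia to freezing are not in the labels.

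The summed FPKM lay between 544629 and 645197 in 14 pigs and was 823320 in Si-NEC pig 223-15 and 864931 in No NEC pig 230-15, which stood apart. The table holds no counts, so the depth behind each value is unknown. Of 8 neuron markers 5 were found, and they summed to 1373 to 1591 FPKM in Si-NEC, 1581 to 1653 in Co-NEC and 1483 to 1884 in No NEC pigs. Of 6 astrocyte markers 4 were found, with ALDH1L1 listed at 0 in every pig. Of 5 neutrophil markers 3 were found, with CSF3R listed at 0 in every pig, and they summed to 2.39 to 25.0 FPKM in Si-NEC, 0.906 to 2.44 in Co-NEC and 1.07 to 3.33 in No NEC pigs. In bulk tissue, fewer cells of a type and less RNA per cell cannot be told apart.

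FOS, JUNB, EGR1, EGR2, IER2 and BTG2 did not pass the test in any of the pairwise comparisons. With limma and Benjamini-Hochberg adjustment over all entries at a threshold of 0.2, 0 of the 6 tested genes were called in Si-NEC against No NEC pigs, where 0.00736% of all entries were, 0 in Co-NEC against No NEC, where again 0.00736% were, and 0 in Si-NEC against Co-NEC, where 0.0147% were. At an unadjusted p under 0.05 the counts were 1 of 6 (BTG2) against 2.61% of all entries, 0 of 6 against 3.44%, and 3 of 6 (BTG2, IER2 and JUNB, all higher in Si-NEC) against 5.64%. In no comparison did the pigs of one group lie wholly above or below those of the other for any of the 6 genes, as they did in 0.155%, 0.464% and 0.545% of all entries. Not passing the test does not show that the groups were alike. The pattern also varied from pig to pig: FOS, JUNB, IER2 and BTG2 were each highest in the same Si-NEC pig, 246-15. EGR1 and NPAS4 were highest in another Si-NEC pig, 224-15.

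**Figure D1:**
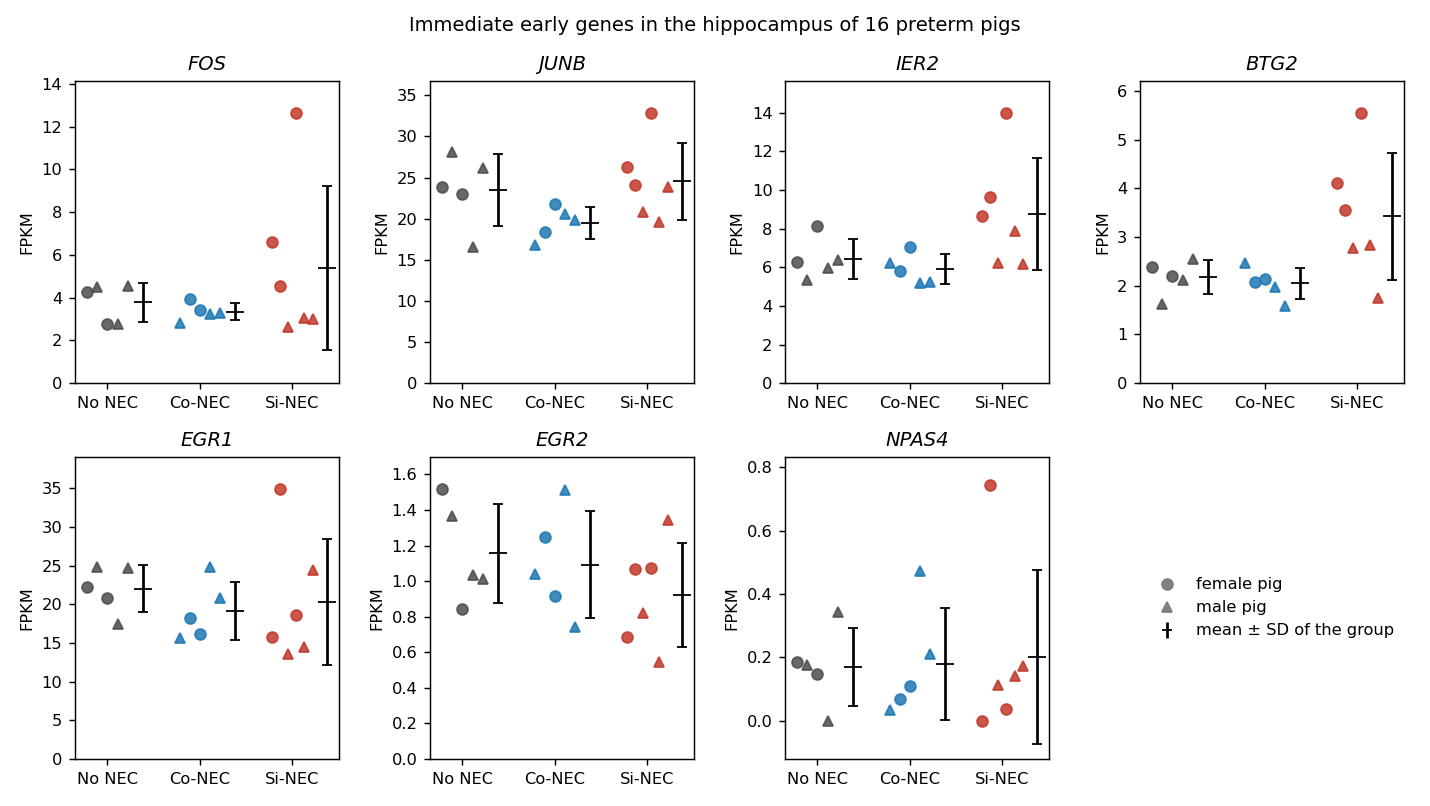
FPKM of each gene in every pig (y axis, linear), by group, with circles for female and triangles for male pigs and bars for the group mean ± SD. FOS in Si-NEC ran from 2.61 to 12.6 FPKM, and in the other groups from 2.78 to 4.57.

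FOS encodes a partner of the AP-1 transcription factor and is the textbook marker of recent neuronal activation. It was at 4.25, 4.51, 2.78, 2.78 and 4.57 FPKM in the No NEC pigs and at 2.83, 3.96, 3.43, 3.25 and 3.29 in the Co-NEC pigs. In the Si-NEC pigs the lowest value was 2.61, the median 3.81 and the highest 12.6 FPKM. Pigs 246-15 (12.6) and 223-15 (6.59) stood above every pig of the other groups, while the remaining 4 Si-NEC pigs spanned 2.61 to 4.55 FPKM, about the range of the other groups.

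The 6 Si-NEC pigs averaged 5.40 ± 3.83 FPKM of FOS (SD, n = 6), and the 5 No NEC pigs 3.78 ± 0.916 (SD, n = 5). The difference in mean log2(FPKM + 0.5), the scale of all differences given here, was 0.29 (SE 0.34, exact permutation p = 0.474). Without pig 246-15 it was 0.02, and the groups overlapped. The difference of Si-NEC against Co-NEC was 0.42 (SE 0.32, exact permutation p = 0.333) and 0.15 without that pig. All exact permutation tests were two-sided, SE is the standard error of the limma fit, and comparisons of 6 against 5 pigs allow no p under 0.00216, and of 5 against 5 none under 0.00794.

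JUNB encodes a Jun protein of the AP-1 factor and was one of the 2 most abundant genes of the set, with 22.7 ± 4.31 FPKM (SD, n = 16) over all pigs. Its values were 23.8, 28.1, 23.0, 16.5 and 26.2 FPKM in No NEC and 16.8, 18.4, 21.8, 20.6 and 19.9 in Co-NEC pigs. Si-NEC pigs had a lowest value of 19.6, a median of 24.0 and a highest of 32.8 FPKM. The highest Co-NEC pig lay below 4 of the 6 Si-NEC pigs, and the lowest value of all was in a No NEC pig.

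Si-NEC exceeded Co-NEC for JUNB by 0.31 (SE 0.13, limma unadjusted p = 0.0302, adjusted p = 0.867, exact permutation p = 0.0346). Leaving out 1 pig at a time kept the difference between 0.23 and 0.37. Co-NEC against No NEC was −0.25 (SE 0.14, exact permutation p = 0.127), and Si-NEC against No NEC 0.06 (SE 0.16, exact permutation p = 0.701). The difference of Co-NEC against No NEC rested on single pigs. Pig 540-14, at 16.5 FPKM, was the only No NEC pig not above every Co-NEC pig. Without it the difference was −0.37 (limma adjusted p = 0.662), a value that the choice of that pig favours. Pig 230-15, whose summed FPKM stood apart, was the highest No NEC pig at 28.1 FPKM. Without pig 230-15 the difference was −0.18 (exact permutation p = 0.254). Over the 16 pigs JUNB had a Pearson r of 0.53 with the log2 of the summed FPKM.

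IER2, a small nuclear protein induced by serum and growth factors, was at 6.28, 5.35, 8.12, 5.96 and 6.35 FPKM in No NEC and 6.24, 5.82, 7.07, 5.17 and 5.23 in Co-NEC pigs. In Si-NEC pigs it ran from 6.16 through a median of 8.27 to 14.0 FPKM. The Co-NEC pigs all lay below 4 of the 6 Si-NEC pigs, and the No NEC pigs below 3 of them.

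Si-NEC pigs averaged 8.75 ± 2.89 FPKM of IER2 (SD, n = 6), Co-NEC pigs 5.91 ± 0.786 (SD, n = 5) and No NEC pigs 6.41 ± 1.03 (SD, n = 5). Si-NEC was above Co-NEC by 0.49 (SE 0.19, limma unadjusted p = 0.0234, adjusted p = 0.864, exact permutation p = 0.0325). Against No NEC the difference was 0.38 (SE 0.20, exact permutation p = 0.0909). Without pig 246-15 these differences were 0.35 and 0.24.

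BTG2 encodes an antiproliferative protein that promotes the shortening of mRNA tails and is induced by p53 as well as by activity. It was at 2.38, 1.62, 2.202, 2.12 and 2.55 FPKM in No NEC and 2.47, 2.08, 2.13, 1.97 and 1.59 in Co-NEC pigs. In Si-NEC pigs the lowest value was 1.76, the median 3.20 and the highest 5.54 FPKM. All pigs of the other groups lay below 5 of the 6 Si-NEC pigs, and the exception was pig 547-14.

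This was the largest group difference of the set, 0.57 for Si-NEC against Co-NEC (SE 0.22, limma unadjusted p = 0.0222, adjusted p = 0.864, exact permutation p = 0.0411). The difference from No NEC was 0.50 (SE 0.22, limma unadjusted p = 0.0451, adjusted p = 1, exact permutation p = 0.0628). The ratio of the mean FPKM was 1.67 against Co-NEC and 1.58 against No NEC. Without pig 547-14, the only Si-NEC pig not above all pigs of the other groups, the differences were 0.71 from Co-NEC and 0.65 from No NEC, values that the choice of that pig favours. BTG2 belongs to the genes that the study itself picked on these pigs for Si-NEC against Co-NEC, so its difference is not independent evidence.

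In pigs numbered -14 BTG2 differed between Si-NEC and No NEC by −0.04 (2 against 2 pigs), and in pigs numbered -15 by 0.78 (4 against 3). For FOS these values were −0.21 and 0.53, and for IER2 0.17 and 0.48. The labels do not say what the suffix stands for. Every pig numbered -14 was male and every female was numbered -15, so splits by suffix and by sex cannot be fully told apart. With all 16 pigs, 0 of the 6 genes were called for the suffix, with group in the fit, where 0.0221% of all entries were.

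Levels of S100A8, a calcium-binding protein gene abundant in neutrophils, moved with IER2 and BTG2. The study picked S100A8 on these pigs for Si-NEC against No NEC, so its relation to genes higher in Si-NEC is not independent evidence. S100A8 was highest in Si-NEC pigs 246-15 (25.0 FPKM), 224-15 (21.2) and 223-15 (14.8), the 3 pigs that were also highest for BTG2 and for IER2. In the Si-NEC group it was lowest in pig 547-14 (2.21), as BTG2 and IER2 were. S100A8 made up nearly all of the neutrophil marker sum, and the other neutrophil marker with values, MPO, the myeloperoxidase gene, did not follow it. MPO was at 0.0485 FPKM in pig 246-15, the second lowest value of the 16, and highest, at 0.940, in No NEC pig 230-15. MPO was under the filter on low values, with a median of 0.182 FPKM, and at such levels a difference could not be resolved.

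Over 16 pigs the log2 of the neutrophil marker sum, and so in effect S100A8, had a Pearson r of 0.75 with IER2 (permutation p = 0.00082, adjusted over 48 relations of 6 genes with 8 marker sums 0.0197) and of 0.80 with BTG2 (permutation p = 0.00027, adjusted 0.0130). Spearman rho was 0.47 (permutation p = 0.0700, adjusted 0.560) and 0.58 (permutation p = 0.0188, adjusted 0.397). With group means removed r was lower, at 0.55 with IER2 and 0.61 with BTG2. Without pigs 246-15 and 224-15 r was 0.47 and 0.63, and it was 0.59 and 0.36 in pigs numbered -14 and 0.75 and 0.85 in pigs numbered -15.

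The summed neuron markers ran the other way, and by rank as closely. Spearman rho was −0.62 with IER2 (permutation p = 0.0116, adjusted over 48 relations 0.397) and −0.56 with BTG2 (permutation p = 0.0248, adjusted 0.397). Pearson r was −0.51 (permutation p = 0.0561, adjusted 0.539) and −0.48 (permutation p = 0.0684, adjusted 0.547), and without pigs 230-15 and 224-15 it was −0.35 and −0.26. With group means removed r was weaker, at −0.30 with IER2 and −0.23 with BTG2. In pigs numbered -14 r was −0.89 and −0.68, and in pigs numbered -15 −0.43 and −0.42. The neuron markers in the sum did not all go one way. In Si-NEC against No NEC 1 was higher and 4 lower, and in Si-NEC against Co-NEC 2 were higher and 3 lower. MAP2 was highest in pig 223-15 (281 FPKM) and SLC17A7 in pig 539-14 (679), both Si-NEC pigs. Relations with single neuron markers were not computed. The part of either cell type in the levels of IER2 and BTG2 was not tested.

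**Figure D2:**
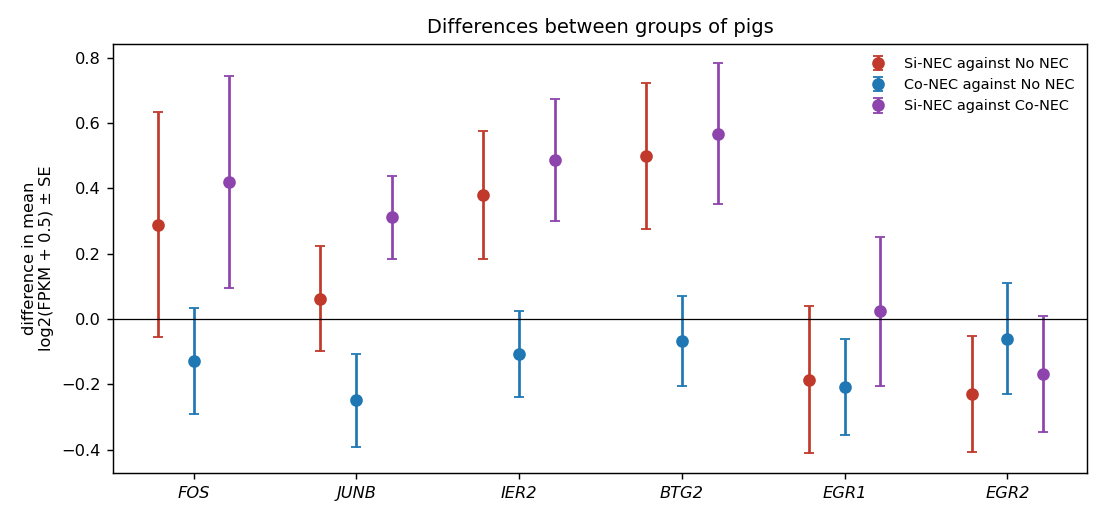
Difference between group means of log2(FPKM + 0.5) with the limma standard error, for the 6 tested genes in the pairwise comparisons. BTG2, IER2, FOS and JUNB lie above 0 for Si-NEC against Co-NEC, from 0.31 to 0.57, and all 6 genes lie at or below −0.06 for Co-NEC against No NEC.

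EGR1, EGR2 and NPAS4 gave no such difference. EGR1, a zinc finger factor that reports synaptic activity and plasticity, was at 22.3, 24.9, 20.9, 17.5 and 24.7 FPKM in No NEC and 15.6, 18.2, 16.2, 24.8 and 20.8 in Co-NEC pigs. In Si-NEC pigs it ran from 13.6 through 17.2 to 34.9 FPKM. That group held both the highest pig, 224-15, and the lowest, 226-15, and 3 of its 6 pigs were below every No NEC pig.

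The difference of Si-NEC against No NEC for EGR1 was −0.19 (SE 0.23, exact permutation p = 0.461) and that of Co-NEC against No NEC −0.21 (SE 0.15, exact permutation p = 0.198). Si-NEC against Co-NEC was 0.02 (SE 0.23, exact permutation p = 0.942), and without pig 224-15 it was −0.15. The direction of that last value rested on single pigs.

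EGR2, a related zinc finger factor also known for Schwann cell myelination, was low, at 1.05 ± 0.289 FPKM (SD, n = 16). It ran from 0.844 to 1.52 FPKM in No NEC, 0.744 to 1.51 in Co-NEC and 0.548 to 1.35 in Si-NEC pigs. The groups overlapped, with differences of −0.23 (exact permutation p = 0.208), −0.06 (0.714) and −0.17 (0.348) for Si-NEC against No NEC, Co-NEC against No NEC and Si-NEC against Co-NEC.

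NPAS4, a factor induced in neurons by calcium entry and by little else, was near the floor of the values. It was at 0.187, 0.175, 0.147, 0 and 0.343 FPKM in No NEC and 0.0332, 0.0694, 0.110, 0.472 and 0.211 in Co-NEC pigs. Si-NEC pigs ran from 0 through 0.126 to 0.744 FPKM, the highest again in pig 224-15, where EGR1 was highest. Exact permutation p-values were 0.961, 0.992 and 0.963 for Si-NEC against No NEC, Co-NEC against No NEC and Si-NEC against Co-NEC, and at such levels a difference could not be resolved.

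For the tested genes together, the median log2 difference of Si-NEC against No NEC was 0.18 with 4 of 6 higher, beside 0.02 over all entries with 53.8% higher. For Co-NEC against No NEC it was −0.12 with 0 of 6 higher, beside 0.01 with 52.0% higher. For Si-NEC against Co-NEC it was 0.37 with 5 of 6 higher, beside 4.82e-05 with 50.1% higher. The comparisons share pigs and the genes share their variation, so the counts are not independent of each other.

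The genes differed in how much they varied between pigs of the same group. FOS had a within-group SD of 0.53 on the log2 scale, above that of 88.3% of all entries tested, whose median was 0.29. EGR1 (0.37, above 70.2%) and BTG2 (0.34, above 63.8%) followed. IER2 (0.30, above 54.0%), EGR2 (0.27, above 45.7%) and JUNB (0.24, above 35.0%) lay near the middle of all entries or below.

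Sex went with the FOS pattern in Si-NEC pigs. The 3 Si-NEC females had 4.55 to 12.6 FPKM of FOS and the 3 males 2.61 to 3.06, while in No NEC pigs the 2 females had 2.78 and 4.25 and the 3 males 2.78 to 4.57. The effect of Si-NEC against No NEC was smaller in males than in females by 1.35 on the log2 scale (difference of males minus females −1.35, SE 0.50, limma unadjusted p = 0.0222, adjusted p = 0.439). Of all entries 10.8% had an unadjusted p under 0.05 in that test, so the value is not unusual among them. Against Co-NEC pigs the same difference for FOS was −0.99 (SE 0.43, limma unadjusted p = 0.0423, adjusted p = 0.484).

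Over all 16 pigs with group in the fit, a test added after the plan, 3 of 6 genes had an unadjusted p under 0.05 for sex, beside 3.25% of all entries, and none passed adjustment. IER2 was lower in males by −0.38 (SE 0.12, limma unadjusted p = 0.0055, adjusted p = 1), BTG2 by −0.34 (SE 0.15, unadjusted p = 0.0367) and FOS by −0.48 (SE 0.23, unadjusted p = 0.0489). In every group the mean of IER2 was higher in females than in males, at 10.8 against 6.75 FPKM in Si-NEC, 6.44 against 5.55 in Co-NEC and 7.20 against 5.89 in No NEC pigs. For BTG2 and FOS the sexes lay far apart only in Si-NEC pigs. Female against male means of BTG2 were 4.40 and 2.46 FPKM in Si-NEC, 2.11 and 2.01 in Co-NEC, and 2.29 and 2.09 in No NEC pigs. For FOS they were 7.92 and 2.89 in Si-NEC, 3.69 and 3.12 in Co-NEC, and 3.52 and 3.95 in No NEC pigs, the last being higher in males. The Si-NEC females are pigs 223-15, 224-15 and 246-15, those with the highest S100A8, so in this group sex and S100A8 cannot be told apart. MPO, which was under the filter, could not separate them at its levels, with 0.211, 0.180 and 0.0485 FPKM in these females and 0.148 to 0.246 in the Si-NEC males. With sex as a covariate, the differences of Si-NEC against Co-NEC were 0.52 for BTG2 and 0.44 for IER2. All females were numbered -15, and the fits for sex and for the number suffix did not hold the other term. Differences by sex therefore overlap with those by suffix.

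**Figure D3:**
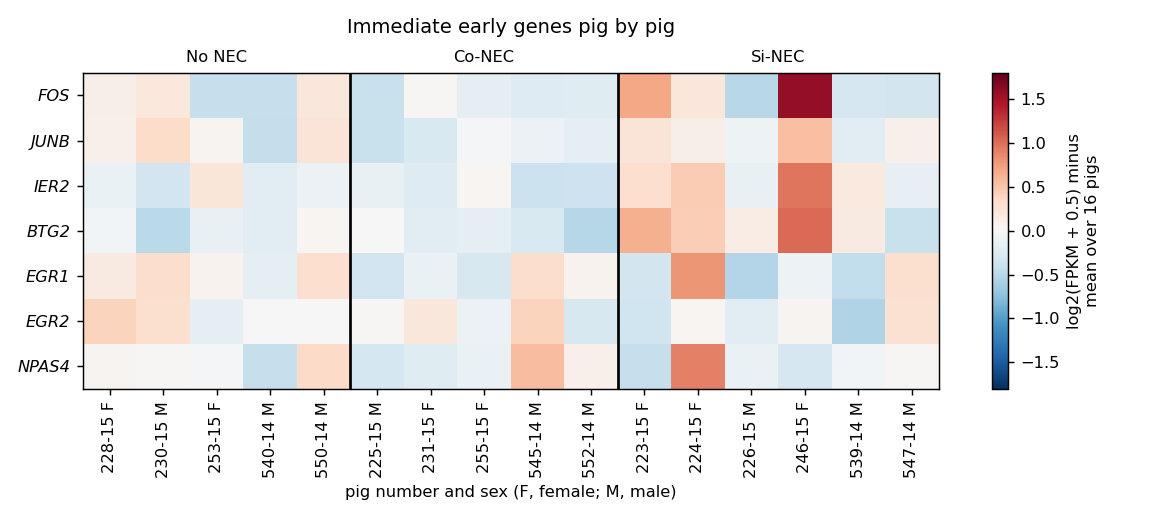
Each gene in each pig as log2(FPKM + 0.5) minus the gene's mean over 16 pigs (colour), with pigs in columns by group. Pig 246-15 is highest for FOS, JUNB, IER2 and BTG2, and pig 224-15 for EGR1 and NPAS4.

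The genes did not all move together over the 16 pigs. Over the 15 pairs of the 6 tested genes, the median Pearson r of log2(FPKM + 0.5) was 0.37, beside 0.02 over all pairs of entries tested, and 4 pairs were above 0.7 while 4 were below 0. The pairs above 0.7 were IER2 with BTG2 and FOS with JUNB, BTG2 and IER2. EGR1 and EGR2 were near 0 or negative against IER2 and BTG2.

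**Figure D4:**
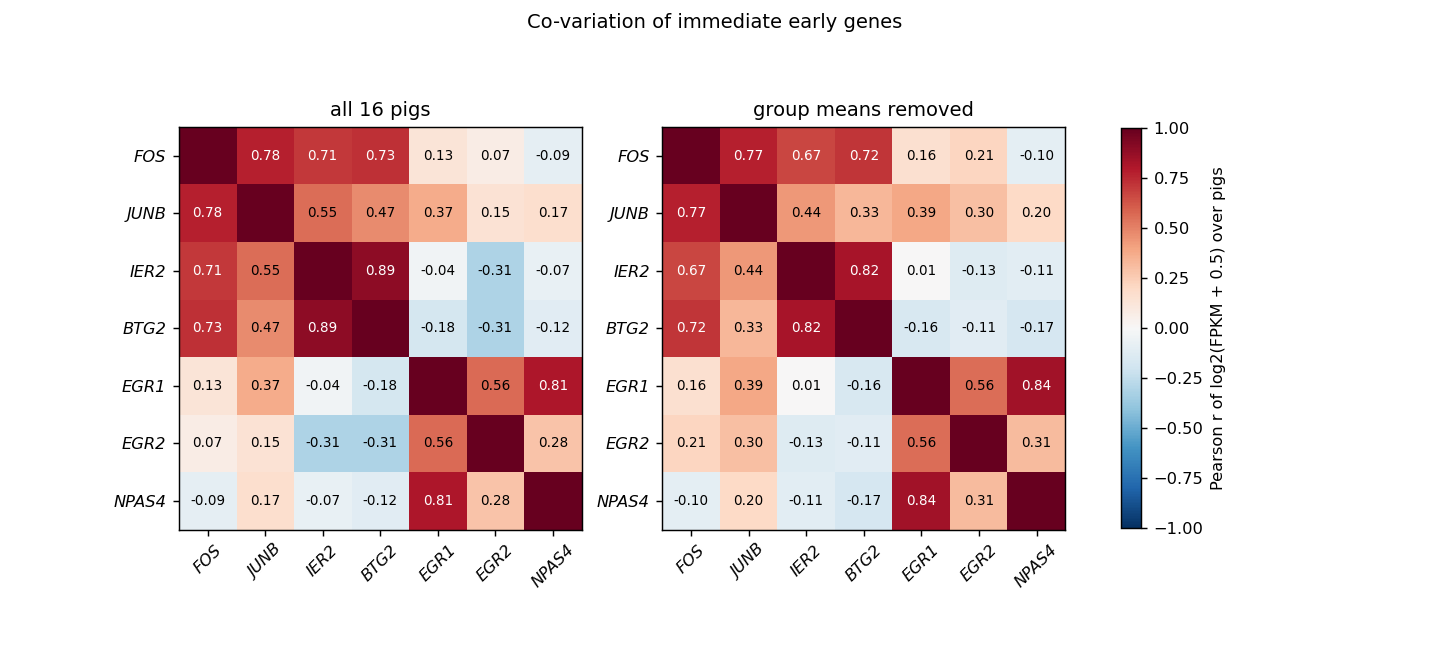
Pearson r of log2(FPKM + 0.5) between genes, over all 16 pigs (left) and with group means removed (right). IER2 with BTG2 (0.89) and EGR1 with NPAS4 (0.81) are the highest cells on the left, and JUNB, though highest with FOS (0.78), also has 0.37 with EGR1, above the 0.28 of EGR2 with NPAS4.

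IER2 and BTG2 gave the closest pair. Pearson r was 0.89 (permutation p = 5e-05, adjusted over 15 pairs 0.00075) and Spearman rho 0.86 (permutation p = 3e-05, adjusted 0.00045). It was 0.82 with group means removed, 0.74 when the 2 pigs with IER2 values most distant from the median (246-15 and 224-15) were left out, 0.81 in pigs numbered -14 and 0.88 in pigs numbered -15. Among all 13590 tested entries BTG2 ranked 1 by r for IER2, and IER2 ranked 4 for BTG2.

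FOS and JUNB, both parts of AP-1, also moved together. Pearson r was 0.78 (permutation p = 0.00017, adjusted over 15 pairs 0.00127) and Spearman rho 0.74 (permutation p = 0.00164, adjusted 0.0123), with 0.77 after removing group means and 0.63 (permutation p = 0.0166, adjusted 0.0622) without pigs 246-15 and 223-15. It was 0.75 in pigs numbered -14 and 0.79 in pigs numbered -15. FOS ranked 6 among all tested entries for JUNB, and JUNB 27 for FOS.

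FOS with IER2 and FOS with BTG2 rested on 2 pigs. Pearson r of FOS with IER2 was 0.71 (permutation p = 0.00806, adjusted over 15 pairs 0.0302) while Spearman rho was 0.39 (permutation p = 0.137, adjusted 0.256), and without pigs 246-15 and 223-15 r was 0.06. Pearson r of FOS with BTG2 was 0.73 (permutation p = 0.00288, adjusted 0.0144), with a Spearman rho of 0.34 (permutation p = 0.204, adjusted 0.256) and an r of 0.09 without the same pigs. In pigs numbered -14 these were −0.0011 and 0.31, and in pigs numbered -15 0.74 and 0.75. The relation of FOS to IER2 and BTG2 was therefore not seen in the other 14 pigs.

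In those 14 pigs FOS was closer to EGR1. Pearson r of FOS with EGR1 was 0.13 (permutation p = 0.631) and Spearman rho 0.40 (permutation p = 0.130) over 16 pigs, and r was 0.66 without pigs 246-15 and 223-15 (permutation p = 0.0110, adjusted over 15 pairs 0.0550). Pig 246-15 had the highest FOS of all at 18.6 FPKM of EGR1, and pig 223-15 the second highest FOS at 15.7 FPKM of EGR1, both under the EGR1 median of 19.7 over 16 pigs. Leaving out pigs 246-15 and 223-15 therefore favours a higher r, and leaving out any 1 pig gave an r of at most 0.31. Pig 224-15, with the highest EGR1 and NPAS4, had 4.55 FPKM of FOS.

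EGR1 and EGR2 had a Pearson r of 0.56 (permutation p = 0.0236, adjusted over 15 pairs 0.0636) and a Spearman rho of 0.63 (permutation p = 0.0107, adjusted 0.0534), and 0.67 without pigs 224-15 and 226-15. NPAS4 was under the filter, and its pairs were added after the values were seen, with adjustment over 21 pairs. EGR1 with NPAS4 gave a Pearson r of 0.81 (permutation p = 0.00015, adjusted 0.00119) and a Spearman rho of 0.77 (permutation p = 0.00092, adjusted 0.00966), and 0.73 without pigs 224-15 and 226-15. With group means removed it was 0.84, and it was 0.68 and 0.85 in pigs numbered -14 and -15. NPAS4 against FOS, IER2, BTG2 and JUNB gave r of −0.09, −0.07, −0.12 and 0.17. Without pigs 246-15 and 223-15, FOS with NPAS4 gave 0.54 (permutation p = 0.0411, adjusted over 21 pairs 0.144). Leaving out these pigs favours that value, since NPAS4 was at 0.0387 and 0 FPKM in them.

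**Figure D5:**
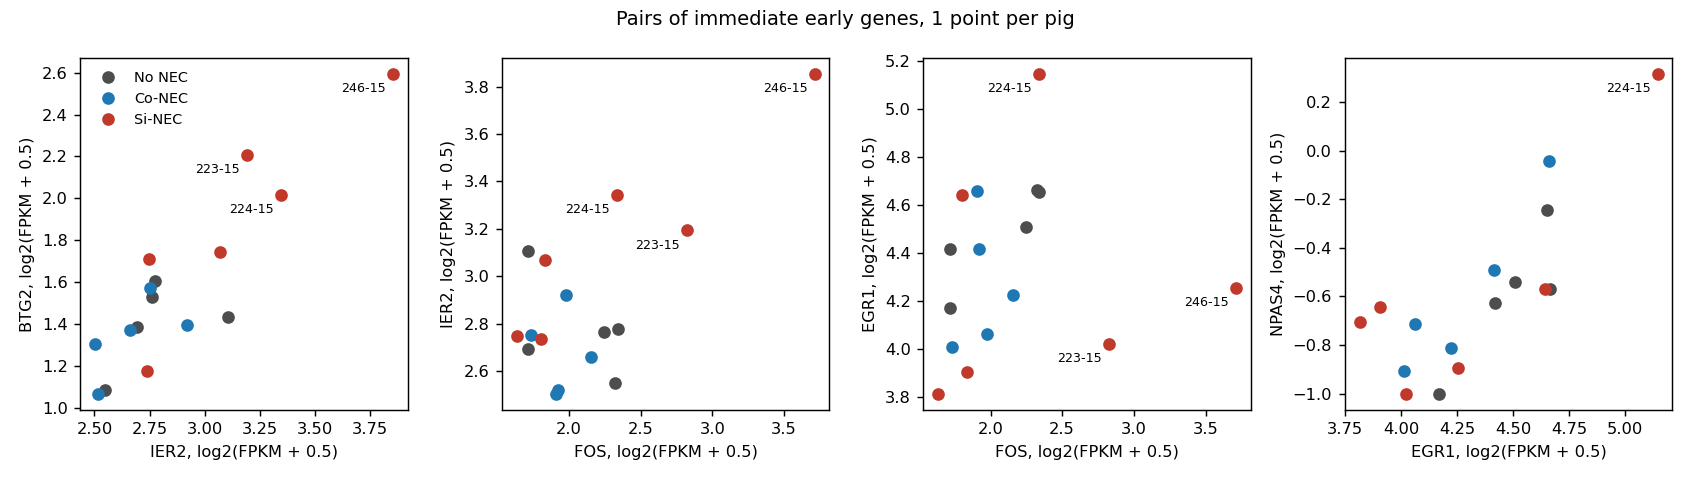
Pairs of genes as log2(FPKM + 0.5), 1 point per pig, coloured by group. IER2 and BTG2 rise together over all pigs (r = 0.89), and so do EGR1 and NPAS4 (0.81). FOS and IER2 rise together through pigs 246-15 and 223-15 (0.71 with them and 0.06 without). FOS and EGR1 do so in the other pigs (0.13 with pigs 246-15 and 223-15 and 0.66 without, a value that leaving them out favours).

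The entries most like each gene were taken by Pearson r over the 16 pigs, a choice that favours entries highest in the same pig as the gene itself. For FOS these were SERPING1 (0.88), which encodes the C1 inhibitor, an entry without a symbol (0.86) and CLEC2B (0.85), and for all of them pig 246-15 was highest. SERPING1 was at 47.5 FPKM in that pig, and its r with FOS was 0.68 without it. For IER2 they were BTG2 (0.89) and 2 entries without a symbol (0.89 and 0.88), and for BTG2 they were TINAGL1 (0.93) and 2 without a symbol (0.91 and 0.90), again highest in pig 246-15. For JUNB they were an entry without a symbol (0.82), SH2D3C (0.82) and CHRDL2 (0.80).

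For EGR1 the nearest were an entry without a symbol (0.84), LRRC38 (0.78) and another without a symbol (0.73). For EGR2 they were TRPC4 (0.76), a cation channel gene, an entry without a symbol (0.76) and NR4A3 (0.75), itself an immediate early nuclear receptor. With 13590 entries and 16 pigs, high values of r arise for some entries of any gene, and these are a description.

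The wider immediate early response was taken from lists of related genes. Of 16 other immediate early transcription factors, 10 were found and tested, and in each of the comparisons 0 were called, with an unadjusted p under 0.05 for 0. Of all entries at most 0.0147% were called in any comparison, and 2.61% to 5.64% had such a p. A count of 0 of 10 is near those shares. JUN, JUND, FOSL2, EGR4 and KLF2 were not matched to an entry. In Si-NEC against No NEC 4 were higher and 6 lower, with a median difference of −0.04, beside 53.8% of all entries higher. In Si-NEC against Co-NEC 5 were higher and 5 lower, with a median of −0.03, beside 50.1% of all entries higher. So the nuclear receptors NR4A2 and NR4A3 and the factor EGR3 did not share the direction of BTG2 and IER2. In Si-NEC against No NEC, NR4A2 was at 41.4 against 51.1 FPKM (log2 difference −0.30, SE 0.16, exact permutation p = 0.0974). NR4A2 was at 68.4 FPKM in No NEC pig 230-15, whose sum stood apart, and at most 51.7 in the others. In the same comparison EGR3 was at 10.51 against 12.33 (−0.25, exact permutation p = 0.286) and NR4A3 at 10.7 against 12.1 (−0.18, exact permutation p = 0.167).

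KLF4, a Krüppel-like factor, had a log2 difference of −0.05 in that comparison, and ATF3, a stress-induced factor, one of 0.39 (SE 0.36, exact permutation p = 0.392). ATF3 was at 3.39 FPKM in pig 246-15 and at most 1.36 in the others. SRF, the factor that binds the serum response elements of FOS and EGR1, was at 9.50 to 16.2 FPKM over the 16 pigs with a difference of −0.03. CREB1 and DUSP6 were not matched to an entry. Of 14 upstream factors 8 were tested and 0 were called, beside at most 0.0147% of all entries in any comparison. In Si-NEC against No NEC 3 were higher and 5 lower, beside 53.8% of all entries higher.

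Of 17 signal feedback and RNA decay genes 9 were tested and 0 were called, beside at most 0.0147% of all entries in any comparison. In Si-NEC against No NEC 8 of 9 had a positive difference, SGK1 and IER5 close to 0 among them, with a median of 0.23, beside 53.8% positive over all entries. Against Co-NEC 8 of 9 were positive, with a median of 0.36, beside 50.1% of all entries. At an unadjusted p under 0.05 there were 1 of 9, beside 2.61% of all entries, and 3 of 9, beside 5.64%. IER3, a regulator of cell survival that NF-kB induces, differed from No NEC by 1.52 (SE 0.48, limma unadjusted p = 0.0084, adjusted p = 1), and the study picked it on these pigs too. It was at 11.3 FPKM in pig 246-15 and 7.08 in pig 224-15. PER1, a clock gene that glucocorticoids and activity induce, averaged 32.0 ± 5.53 FPKM in Si-NEC pigs (SD, n = 6) and 24.7 ± 4.22 in Co-NEC pigs (SD, n = 5). That difference was 0.36 (SE 0.14, exact permutation p = 0.0455, adjusted p = 0.864). Against No NEC pigs the PER1 difference was 0.23 (SE 0.14, exact permutation p = 0.134).

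IER5, a relative of IER2, differed from Co-NEC by 0.36 (SE 0.16, exact permutation p = 0.0758) but from No NEC by 0.04. DUSP1, a phosphatase that turns off MAP kinases, was at 38.5 FPKM in pig 246-15 and at most 25.4 in the others, with a Si-NEC against No NEC difference of 0.16 (exact permutation p = 0.619). SGK1, a kinase induced by glucocorticoids, differed from No NEC by 0.00 (SE 0.14, exact permutation p = 0.996). ZFP36 was listed at 0 in 14 of 16 pigs.

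Of 12 neuronal activity effectors 8 were tested and 0 called, beside at most 0.0147% of all entries in any comparison. Against No NEC 4 had a positive and 4 a negative difference in Si-NEC, with a median of −0.04, beside 53.8% of all entries positive. BDNF, a secreted neuronal growth factor that firing induces, averaged 10.22 ± 1.92 FPKM in Si-NEC pigs (SD, n = 6) and 14.8 ± 2.90 in No NEC pigs (SD, n = 5). The difference was −0.51 (SE 0.16, limma unadjusted p = 0.0086, adjusted p = 1, exact permutation p = 0.0152). Against Co-NEC it was −0.37 (SE 0.13, exact permutation p = 0.0216, adjusted p = 0.851). BDNF was at 18.9 FPKM in No NEC pig 230-15, whose sum stood apart, and at most 15.6 in the others.

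HOMER1, a postsynaptic scaffold, and NPTX2, a synaptic pentraxin, differed from No NEC by −0.11 and −0.24 (exact permutation p = 0.530 and 0.325). PTGS2, the inducible cyclooxygenase, was at 5.92 FPKM in pig 246-15 and at most 2.63 in the others. VGF was not matched to an entry, and SCG2 and PCSK1 were listed at 0 in every pig.

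Pig 246-15 was the highest of the 16 for 10 of the 35 tested genes of these lists, beside 6.91% of all entries tested, and among them were ATF3, DUSP1, IER3 and PTGS2 and, named after their values were seen, MAFF (7.02 FPKM), CCN1 (9.97) and MYC (9.47). It was the lowest for 2 genes, BDNF and NPTX2. Pigs 230-15 and 223-15, whose sums stood apart, were highest for 8 and 3 of the list genes, beside 26.3% and 17.5% of all entries. Of the 6 tested members, pigs 230-15 and 223-15 were highest for 0.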

How the data were processed

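Hippocampal RNA of 16 pigs was measured (6 Si-NEC, 5 Co-NEC and 5 No NEC; groups and sex from the labels). After trimming, the authors mapped reads to the Sscrofa 10.2 build (TopHat2 2.1.1) and deposited FPKM values from Cufflinks 2.2.1; strand-specific counting is not stated, so antisense reads cannot be told apart. No counts were used, so counting error, intervals and detection limits could not be computed. Of 24594 entries, 1779 repeats of another entry were left out.

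The 13590 entries whose mean over pigs reached 0.5 FPKM were fitted on log2(FPKM + 0.5), 1 pair of groups at a time, with limma 3.58.1 in R 4.3.3 (lmFit, eBayes with a trend), Benjamini-Hochberg adjustment and a threshold of 0.2; a log2 difference on this scale understates the change of low genes. For single genes an exact permutation test (two-sided) compared the group means of the log2 values. Correlations used 100000 permutations. Other tables used scipy 1.17.1, pandas 2.3.3 and numpy 2.4.6 (Python 3.11.15), and plots matplotlib 3.10.9. The limma step was also checked on simulated data with known changes.

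The genes and lists were chosen with earlier results of these data known. All genes of the set were named, with a fixed choice of list genes, any list gene past the threshold and the 3 entries most like each tested gene. Alternatives were pseudocounts of 0.1 and 1, no filter, a minimum mean of 1 FPKM, median-of-ratios scaling, all groups in 1 fit, sex or number suffix as covariate, no trend, robust estimation, array weights, a threshold of 0.05 and leaving out each pig. Leaving out pigs 223-15 and 230-15 together, pairs with NPAS4, correlations with marker sums, counts at an unadjusted p of 0.05 under the alternatives and the test of sex over all pigs were added after the data were seen. Symbols came from a table of pig gene names, which gave 11463 of the 22815 entries one. Promoter motifs were planned but no promoter sequences were used here.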

Additional observations from a re-analysis of the deposited data

Results flagged for a closer look

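NPAS4 in Si-NEC pig 224-15 was at 0.744 FPKM, apart from the other 5 Si-NEC pigs, of which the nearest was at 0.173. The gap was 0.77 of the range of the group, above the limit for 6 samples. Of 21 sets of values (7 genes in each group) it was the only one to stand out in this way, and chance alone gives about 1 in 20.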

How the results depend on the processing

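The count of called genes stayed at 0 in all 3 comparisons under every alternative run, and the lowest adjusted p of any of the 6 genes was 0.283 (BTG2, Si-NEC against Co-NEC, with array weights, where 201 of all entries were called against 2). The median of all entries moved by at most 0.0058 under rescaling. Of 408 recomputed differences of single genes, 398 kept their direction and 10 reversed, all of them in small differences. Leaving out 1 pig, JUNB in Si-NEC against No NEC ranged from −0.0565 to 0.13, EGR2 in Co-NEC against No NEC from −0.15 to 0.0246, BTG2 in the same comparison from −0.15 to 0.0018, and EGR1 in Si-NEC against Co-NEC from −0.15 to 0.12; with array weights EGR1 in Si-NEC against Co-NEC was −0.0409.

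The count of genes with an unadjusted p under 0.05 in Si-NEC against No NEC, 1 as reported, was 0 with no filter, with the number suffix as covariate, with array weights and without pigs 223-15 and 230-15, and 2 with all groups in 1 fit. It ranged from 0 to 2 when 1 pig was left out, being 0 without any one of No NEC pigs 228-15, 230-15 and 540-14 or Si-NEC pigs 223-15, 224-15, 246-15 and 539-14 and 2 once 226-15 or 547-14 was left out. For Co-NEC against No NEC it ranged from 0 to 1 (JUNB, without pig 540-14), and in Si-NEC against Co-NEC from 1 to 3, with 1 without pig 552-14 and 2 without 225-15, 231-15, 545-14 or 246-15. The counts over all 13590 entries moved too. In Si-NEC against Co-NEC they were 767 as reported, 489 without pig 552-14, 497 without 545-14, 940 without 246-15 and 2159 with array weights. In Si-NEC against No NEC they were 355 as reported, 236 without pig 224-15, 581 without 228-15 and 741 with array weights. In Co-NEC against No NEC they were 467 as reported and 841 without pig 540-14. With array weights BTG2 in Si-NEC against No NEC was 0.30, and without pigs 223-15 and 230-15 it was 0.36. The cause was not tested. The median correlation was 0.17 with NPAS4 included, and 0.26 to 0.42 without 1 pig, beside 0.37.

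No paired analysis was possible because each sample was a different pig and the labels give no litter or other pairing between groups. With no counts, what depth limits cannot be stated; NPAS4 and EGR2 are the genes with the lowest values.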
